A study of Sus scrofa with 6 samples.

Results

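The genes of the mitochondrial ribosome and of mitochondrial protein import were followed in pig renal medulla after cardiopulmonary bypass (CPB), the machine circulation used in heart surgery. They were chosen by symbol: every probe set whose single annotated gene is a numbered MRPL or MRPS gene, a TIMM or TOMM gene, or one of TFAM, TFB1M, TFB2M, POLG, POLG2, POLRMT, TUFM, TSFM, GFM1, PHB and PHB2. This gave 108 probe sets of 82 genes, out of 23999 probe sets tested and 6765 genes with a probe set of their own. A probe set is a group of short probes against one transcript, and it stands for its gene. TFB2M, POLG, POLG2, POLRMT and PHB have no probe set with a single symbol and were not analysed here. Another 6 probe sets carry a symbol of the family together with other entries and were left out.

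The 6 animals were adult female Large White-Landrace crossbred pigs. The 3 Sham animals had 2.5 hours of general anaesthesia with neck dissection and heparin, and the 3 CPB animals had 2.5 hours of bypass under the same anaesthesia, so anaesthesia, surgery of the neck and heparin are common to both groups. Medulla was taken 24 hours later, and total RNA was hybridised to Affymetrix porcine arrays, 1 for each animal. The values are robust multi-array average (RMA) intensities, which have no counts or depth, and the number of arrays limits the precision. The array medians lay between 94.62 and 96.93. The thick limb genes KCNJ1, a potassium channel, and CLDN10, a tight junction protein, had intensities of at least 834.9 and 1419 on every array. The collecting duct water channel AQP3 ran from 1048 in Sham 2 to 5437 in CPB 2. The other measured markers of these segments had lower minima, such as 120.7 for PTGER3 of the thick limb and 32.85 for SCNN1A of the collecting duct. AQP2, UMOD and SLC12A1, which would mark medullary tubules best, were not analysed here.

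As background, mitochondria carry a small genome of their own that encodes a few core subunits of the respiratory chain. A dedicated ribosome, built from a large and a small subunit whose proteins are all nuclear genes, translates these messages with the elongation factors TUFM, TSFM and GFM1. All other mitochondrial proteins are made in the cytosol, and most enter through the TOM complex of the outer membrane. TIM complexes then carry those bound for the inner membrane or the matrix into or across the inner membrane. In the kidney the tubular segments that pump salt, the proximal tubule and the thick ascending limb above all, are rich in mitochondria.

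In CPB medulla the mean was higher than in Sham for 72 of the 82 genes (87.8%) and lower for 10, when each gene was read from its brightest probe set. Over all 6765 named genes 56.2% had a higher mean in CPB. The median log2 difference, CPB minus Sham, was 0.14 over the 82 genes and 0.0332 over all named genes. The differences ran from -0.21 in MRPS10, a small subunit protein, to 0.54 in MRPL28, a large subunit protein. None of the genes passed the test. With limma and Benjamini-Hochberg adjustment over all probe sets, 0 of the 108 probe sets had an adjusted p under 0.05, the smallest being 0.995, and 0% of all probe sets did. The threshold of the study combines a p under 0.05, not adjusted, with 1.6-fold or more, and 0 of the 108 met it, against 0.0875% of all probe sets with a higher and 0.217% with a lower mean in CPB. An unadjusted p under 0.05 alone was reached by 0 of the 108 in either direction, against 0.7% of all probe sets higher and 0.7% lower. The methods' t-test gave 1 of the 108, where it gave 2.08% of all probe sets. Leaving out Sham 2 gave 12 of the 108, all higher in CPB, where 9.24% of all probe sets then had such a p in either direction, and leaving out CPB 2 gave 3, where 5.03% of all did. In whole tissue a change in the number of cells of a type and a change in the RNA of each cell cannot be told apart.

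The groups overlapped in nearly every gene. All 3 CPB values lay above all 3 Sham values in 1 of the 108 probe sets (0.926%), where 3.38% of all probe sets showed this, and the reverse held in 0 of the 108, where 1.89% of all did. The single exception was the brightest probe set of MRPS12, described below. With 3 animals against 3 a two-sided exact permutation test cannot give a p below 0.1.

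Most of the spread in these genes lay between animals of one group. The highest of the 6 values came from CPB 3 in 55 of the 82 genes, from CPB 2 in 13, from Sham 2 in 7, from Sham 1 in 4, from CPB 1 in 3 and from Sham 3 in 0. The lowest came from Sham 3 in 38 genes, from CPB 2 in 21, from Sham 1 in 14, from CPB 1 in 7, from Sham 2 in 2 and from CPB 3 in 0. Sham 2 thus stood high among the Sham animals and CPB 2 low among the CPB animals. Over all 6765 named genes CPB 3 held the highest value in 1695, CPB 2 in 1635, Sham 1 in 1053 and Sham 3 in 1036. Sham 2 held it in 827 and CPB 1 in 519. The lowest was held by Sham 3 in 1427, Sham 1 in 1306 and CPB 3 in 1260. CPB 2 held the lowest in 1178, Sham 2 in 867 and CPB 1 in 727. Sham 2 lay above the mean of the other Sham animals in 73 genes, CPB 2 lay below the mean of the other CPB animals in 62, and both held in 57 (69.5%), where both held in 35.4% of all named genes.

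**Figure D1:**
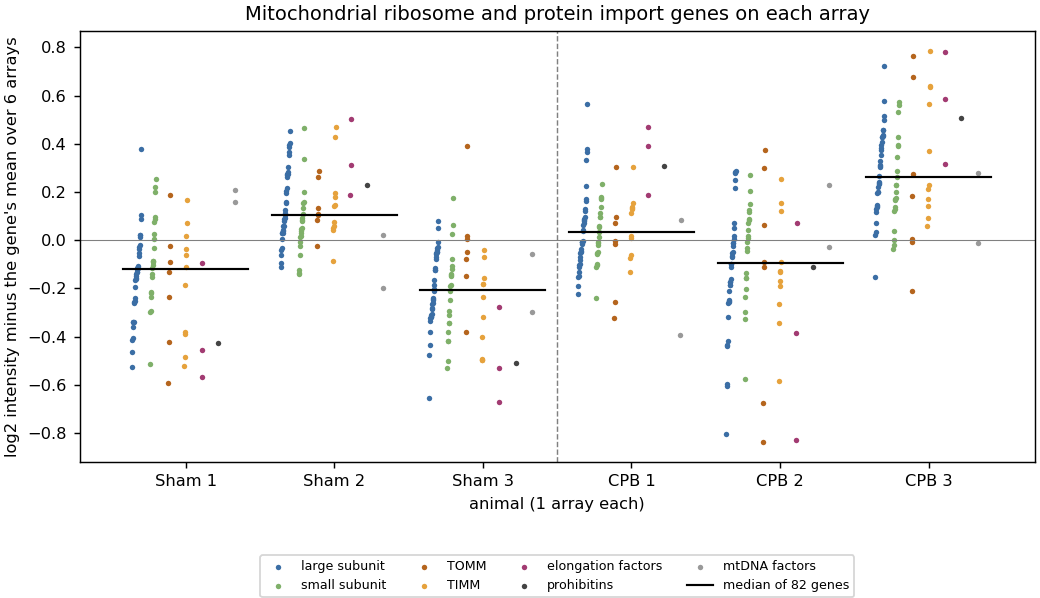
Each point is 1 of the 82 genes on 1 array, as log2 intensity minus the mean of that gene over the 6 arrays (vertical axis) for each animal (horizontal axis), coloured by gene group, and black lines are medians over the 82 genes. CPB 3 and Sham 2 sit above 0 and Sham 3, Sham 1 and CPB 2 below it, so the order of the animals cuts across the groups.

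Of the 9 pairs of a Sham and a CPB animal, 7 had a positive median difference over the 82 genes, and the other two, both with Sham 2, had a negative one. Between Sham 3 and CPB 3, 78 of the 82 genes were higher in the CPB animal, with a median difference of 0.47 on the log2 scale, where 55.6% of all named genes were higher. Between Sham 2 and CPB 2, 24 of 82 were higher in the CPB animal, with a median of -0.22, where 51.2% of all named genes were higher. Between Sham 2 and CPB 1 the median was -0.0487. Within the Sham group, Sham 2 exceeded Sham 1 in 65 genes (median 0.23) and Sham 3 in 72 (median 0.31). Within the CPB group, CPB 3 exceeded CPB 1 in 75 genes (median 0.22) and CPB 2 in 68 (median 0.34). These 4 medians exceed the 0.14 between the groups, but that value compares means of 3 animals. A difference between single animals varies more, and the 9 pairs between the groups ran from -0.22 to 0.47. Sham 3 against Sham 1 gave -0.071 and CPB 2 against CPB 1 gave -0.109. Over all named genes the medians of the pairs within a group ran from -0.0349 (Sham 3 minus Sham 2) to 0.0449 (CPB 3 minus CPB 1). Without CPB 3 the number of genes with a higher CPB mean was 53 and the median 0.0549. Without Sham 3 these were 62 and 0.0836, without Sham 2 they were 75 and 0.22, and without CPB 2 they were 72 and 0.212.

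Markers of other cells moved with the same animals. The proximal tubule list was measured by 17 of its 30 genes, all 17 higher on average in CPB and none past an unadjusted p of 0.05, with a median difference of 0.84. Its summed intensity ran from 8913 to 40150 in Sham and from 9344 to 45920 in CPB. AMN, part of the protein uptake receptor of proximal tubule, had intensities of 66.9, 1601 and 416.8 in Sham 1 to 3 and of 1612, 245.9 and 1931 in CPB 1 to 3. AQP1, of the same list, varied far less, from 3932 in Sham 3 to 5547 in CPB 3. The mean of the proximal tubule list lay above its average in Sham 2, CPB 1 and CPB 3 and below it in Sham 1, Sham 3 and CPB 2, and the mean of the 82 genes did the same. The urothelium list, 4 genes of 15, lay above its average in Sham 1, Sham 3 and CPB 2 and had summed intensities of 195.9 to 1931 in Sham and 183.8 to 1054 in CPB. The endothelium list, 12 genes of 14, was highest in Sham 1 and CPB 2, with sums of 2263 to 4085 in Sham and 1650 to 3415 in CPB. Of its 12 genes 6 had a higher and 6 a lower mean in CPB, with a median difference of -0.247. Of the 12, 1 met the study's threshold, the adhesion molecule PECAM1, with a lower mean in CPB. Of all probe sets 0.217% met it with a lower mean. No urothelium gene had an unadjusted p under 0.05. The lowest intensity among the markers of the proximal tubule, urothelium and endothelium lists, 21.98, was that of SLC7A9 in Sham 1. Over all probe sets the array minima lay between 4.88 and 5.24. With the proximal tubule mean as a covariate, 61 of the 82 genes had a positive difference, with a median of 0.0739. All 17 genes behind this covariate were themselves higher on average in CPB, so the fit cannot separate the cells from the group. The part of these cells in the differences between groups was not tested.

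**Figure D2:**
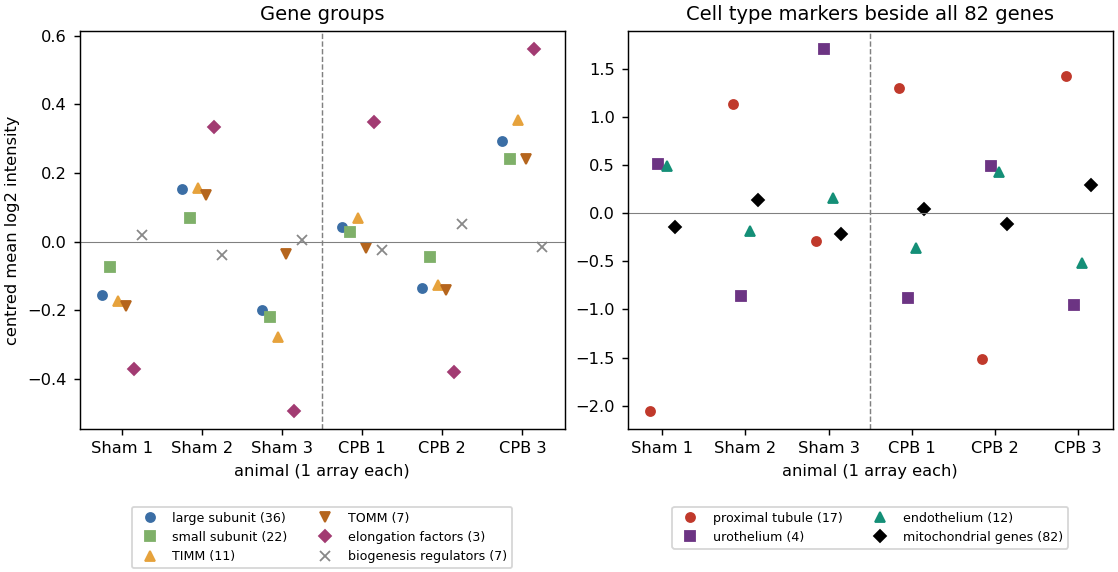
Mean over the genes of a list of log2 intensity minus each gene's mean over 6 arrays (vertical axes, with different ranges) for each animal, with the number of genes in brackets. On the left the elongation factors run from -0.492 in Sham 3 to 0.56 in CPB 3 while the biogenesis regulators stay between -0.0375 and 0.0526, and on the right the proximal tubule markers range from -2.05 in Sham 1 to 1.42 in CPB 3.

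Of the large subunit of the ribosome, 36 genes were measured, 31 of them higher on average in CPB, with a median difference of 0.123 and none past the test. MRPL28 had the largest difference of all 82 genes. Its intensity was 485.7, 826.9 and 424.9 in Sham 1 to 3 and 871.7, 672.1 and 902.5 in CPB 1 to 3. Sham 1 and Sham 3 were low and Sham 2 lay between the CPB values. The log2 difference was 0.54 (standard error 0.28, 3 animals in each group, limma unadjusted p = 0.0989). Its 95% confidence interval ran from -0.14 to 1.23. With 1 array left out the difference of MRPL28 ran from 0.35 without Sham 3 to 0.83 without Sham 2. Its unadjusted limma value was 0.00601 without Sham 2 and 0.0744 to 0.273 with any other array left out. Without Sham 2 such values under 0.05 were reached by 9.24% of all probe sets. MRPL54 had 162.1, 183.7 and 143.3 in Sham and 177.8, 217.2 and 197.2 in CPB, a difference of 0.28 (standard error 0.14, limma unadjusted p = 0.101), with only Sham 2 above the lowest CPB animal. MRPL32, which is cut by a protease in the matrix before it joins the ribosome, had 218.3, 231.2 and 186.1 in Sham and 253.4, 229.6 and 248.0 in CPB, a difference of 0.21 (standard error 0.13). Only Sham 2, by a narrow margin, exceeded the lowest CPB value.

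MRPL16 had 262.9, 351.4 and 329.7 in Sham and 346.5, 354.0 and 393.2 in CPB, a difference of 0.22 (standard error 0.15), with Sham 2 above the lowest CPB value. At the other end, MRPL17 had a difference of 0.01 (standard error 0.17) and MRPL53 of -0.01 (standard error 0.15), and MRPL53 was positive at 0.00143 when each array was centred on its median. In MRPL17 the highest value, 690.1, was that of Sham 2. The differences of the other 30 large subunit genes ran from -0.13 in MRPL13, a core protein of the subunit, to 0.38 in MRPL38. MRPL38 had 291.8, 553.4 and 310.9 in Sham and 542.6, 352.3 and 576.7 in CPB. MRPL37 had one of the widest spreads of all, with 460.8, 806.6 and 483.6 in Sham and 903.6, 350.2 and 910.4 in CPB. In both genes Sham 2 stood with CPB 1 and CPB 3, and CPB 2 with Sham 1 and Sham 3. MRPL58, a peptidyl-tRNA hydrolase built into the large subunit that frees stalled chains, showed the same order in part, with 243.6, 424.4 and 249.3 in Sham and 355.4, 303.4 and 423.6 in CPB. MRPL18 hardly varied, from 193.3 to 217.8 over the 6 animals.

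Of the small subunit, which reads the message, 22 genes were measured and all but MRPS10, that is 21, were higher on average in CPB, with a median of 0.152. MRPS36 is counted here by its symbol, although the protein is now placed in the oxoglutarate dehydrogenase complex, and MRPS30 is placed in the large subunit by ribosome structures. MRPS12, the counterpart of the bacterial protein S12 that guards decoding accuracy, was the gene whose groups did not overlap. Its intensity was 295.8, 312.2 and 292.2 in Sham and 315.3, 345.9 and 347.0 in CPB. CPB exceeded Sham by 0.16 on the log2 scale (standard error 0.11, 3 animals in each group, limma unadjusted p = 0.172), and the methods' t-test, which uses the small spread of this gene alone, gave 0.0397 unadjusted and 0.991 adjusted. Its other probe sets had differences of 0.17 and 0.11, with overlapping groups.

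MRPS2 had 385.0, 438.0 and 356.5 in Sham and 433.5, 511.3 and 435.1 in CPB, a difference of 0.23 (standard error 0.14, limma unadjusted p = 0.142), and only Sham 2 reached the CPB values. MRPS25 had 428.4, 499.9 and 356.0 in Sham and 482.9, 513.9 and 523.1 in CPB, a difference of 0.26 (standard error 0.15), again with only Sham 2 above the lowest CPB animal. MRPS35 had 199.2, 261.1 and 193.0 in Sham and 277.0, 212.7 and 363.8 in CPB, a difference of 0.36 (standard error 0.23), with CPB 2 among the Sham values. The genes closest to 0 were MRPS21 and MRPS26. MRPS21 differed by 0.02 (standard error 0.16), between 699.1 in Sham 1 and 488.8 in Sham 3, and MRPS26 by 0.03 (standard error 0.11), between 372.8 in Sham 2 and 429.8 in CPB 2. MRPS10 had 565.8, 435.5 and 536.1 in Sham and 401.0, 402.3 and 532.5 in CPB, a difference of -0.21 (standard error 0.17, limma unadjusted p = 0.277). CPB 3 lay with Sham 1 and Sham 3 there.

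The 3 elongation factors had the highest median difference of the groups with more than 1 gene, 0.384, and also a wide spread. TUFM, which delivers aminoacyl-tRNA to the ribosome, had 589.4, 715.7 and 395.4 in Sham and 716.9, 661.7 and 782.1 in CPB. The CPB animals lay close together, Sham 3 was far below them and Sham 2 among them, and the difference was 0.38 (standard error 0.23, 3 animals in each group, limma unadjusted p = 0.15). GFM1, which moves the ribosome along the message, had 432.3, 737.1 and 410.8 in Sham and 820.2, 454.4 and 890.1 in CPB, a difference of 0.45 (standard error 0.35, limma unadjusted p = 0.242). TSFM, which recharges TUFM, had 400.0, 839.3 and 488.3 in Sham and 775.7, 333.4 and 1017 in CPB, with a standard deviation within groups of 0.71 on the log2 scale, the largest of the 82 genes. Its difference was 0.23 (standard error 0.48), and both the highest and the lowest of the 6 values were from CPB animals. With the proximal tubule mean as a covariate the differences were 0.22 in GFM1 and -0.11 in TSFM.

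PHB2, a prohibitin that forms ring scaffolds in the inner membrane, had 807.6, 1274 and 762.3 in Sham and 1344, 1005 and 1542 in CPB. Only Sham 2 exceeded the lowest CPB value, that of CPB 2. The log2 difference was 0.47 (standard error 0.26, 3 animals in each group, limma unadjusted p = 0.12), and its interval ran from -0.16 to 1.1.

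**Figure D3:**
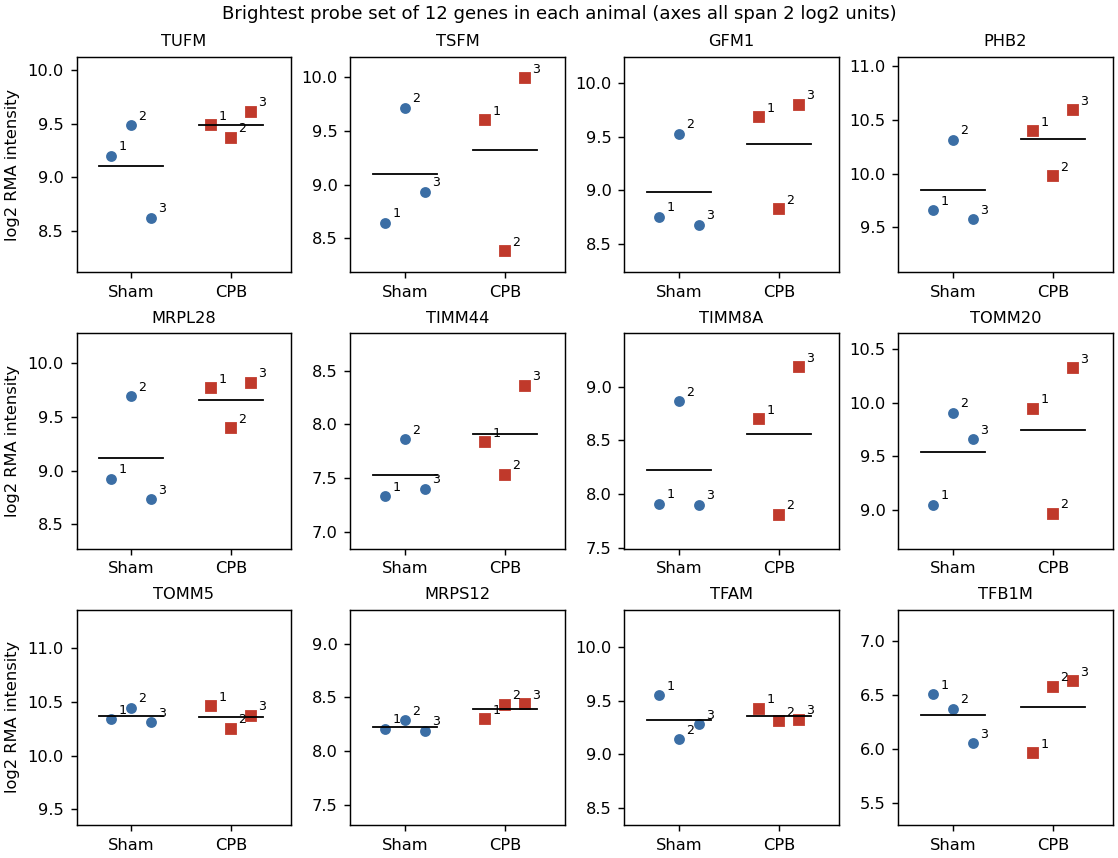
Log2 RMA intensity of the brightest probe set of 12 genes in each Sham animal (circles) and CPB animal (squares), numbered by animal, with group means as black lines and axes that all span 2 log2 units. Sham 2 stands with CPB 1 and CPB 3, and CPB 2 with Sham 1 and Sham 3, in TSFM, GFM1 and TIMM8A, while TOMM5 and MRPS12 hardly vary.

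Of the translocases of the inner membrane, 11 TIMM genes were measured, 10 of them higher on average in CPB, with a median difference of 0.179. TIMM44, which anchors the import motor to the channel, had 160.9, 232.3 and 169.0 in Sham and 228.1, 185.0 and 328.8 in CPB, a difference of 0.38 (standard error 0.26, 3 animals in each group, limma unadjusted p = 0.191). TIMM50, the receptor that hands presequences to the channel, had 182.2, 290.0 and 235.1 in Sham and 287.4, 233.1 and 387.4 in CPB, a difference of 0.35 (standard error 0.25). In both, CPB 3 was the highest animal and CPB 2 lay within the Sham range. The second, dimmer probe set of TIMM50 had the smallest p of all 108, with 202.6, 275.3 and 173.8 in Sham, 270.8, 290.0 and 323.6 in CPB, a difference of 0.46 (standard error 0.2) and a limma unadjusted p of 0.0545. There Sham 2 was the sole Sham animal within the CPB range. TIMM17B, a channel protein, had 221.8, 266.2 and 214.8 in Sham and 255.9, 281.1 and 284.6 in CPB, a difference of 0.23 (standard error 0.13, limma unadjusted p = 0.125), and again only Sham 2 reached the CPB values.

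The small TIMM proteins, which chaperone membrane proteins through the space between the membranes, did not form 1 picture. TIMM8A had 240.6, 466.6 and 239.0 in Sham and 415.5, 224.2 and 580.1 in CPB, a difference of 0.34 (standard error 0.43). TIMM8B had 739.4, 1298 and 682.0 in Sham and 1074, 759.7 and 1499 in CPB, and a difference of 0.30 (standard error 0.34). Both were highest in CPB 3, Sham 2 and CPB 1, in that order, and TIMM8A was lowest in CPB 2 and TIMM8B in Sham 3. TIMM13, which pairs with TIMM8A, had 707.9, 694.6 and 703.8 in Sham and 807.8, 673.9 and 854.8 in CPB, a difference of 0.14 (standard error 0.13), with CPB 2 the lowest animal. TIMM9 and TIMM10, partners in the other small complex, differed by 0.10 (standard error 0.19) and 0.08 (standard error 0.12). TIMM10B differed by -0.08 (standard error 0.14), the sole TIMM gene with a lower mean in CPB, between 206.0 in CPB 1 and 258.6 in Sham 2. TIMM22, the channel for carrier proteins, differed by 0.18 (standard error 0.21), and TIMM21, which links the inner to the outer membrane machinery, by 0.16 (standard error 0.19).

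The TOMM genes of the outer membrane were the least uniform, with 4 of 7 genes higher in CPB and a median difference of 0.0514. This median was negative without Sham 1 and without CPB 3, at -0.0192 and -0.0282, and at -0.00698 with the proximal tubule covariate. TOMM20, the receptor for presequences, had 530.3, 958.4 and 809.4 in Sham and 985.5, 500.4 and 1278 in CPB, a difference of 0.21 (standard error 0.4, 3 animals in each group). TOMM70, the receptor for carrier proteins, had 130.3, 187.7 and 228.8 in Sham and 174.2, 97.6 and 296.3 in CPB, a difference of -0.05 (standard error 0.43). In both receptor genes CPB animals gave the highest and the lowest value. TOMM22, the central receptor, differed in its order of animals, with 542.6, 779.0 and 490.0 in Sham and 510.6, 827.1 and 772.2 in CPB, so that CPB 2 was the highest animal and CPB 1 was among the low ones. Its difference was 0.22 (standard error 0.26).

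The small channel subunits were steady. TOMM5 had 1293, 1395 and 1271 in Sham and 1409, 1218 and 1323 in CPB, a difference of -0.01 (standard error 0.11) that was positive, at 0.00584, with each array centred on its median. TOMM7 had 1146, 1377 and 1188 in Sham and 1241, 1178 and 1427 in CPB, a difference of 0.05 (standard error 0.13). Their intervals, from -0.28 to 0.27 and from -0.28 to 0.38, lie inside a 1.6-fold difference in either direction. TOMM40L, a relative of the channel protein TOMM40, ran from 196.1 in Sham 3 to 233.8 in Sham 2 and differed by 0.09 (standard error 0.12). TOMM34, a cytosolic co-chaperone of import, had 160.2, 138.2 and 141.0 in Sham and 117.8, 172.9 and 121.6 in CPB, a difference of -0.11 (standard error 0.18). In TOMM34 CPB 2 was the highest animal and CPB 1 and CPB 3 were the lowest, whereas CPB 2 lay below the mean of the other CPB animals in 62 of the 82 genes.

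Of the factors that serve the mitochondrial genome, TFAM, which packs it and starts its transcription, had 748.0, 563.9 and 621.1 in Sham and 686.3, 634.1 and 640.7 in CPB. All 3 CPB values lay within the Sham range, and the difference was 0.03 (standard error 0.14, 3 animals in each group, limma unadjusted p = 0.837). The interval ran from -0.31 to 0.37. The other 3 probe sets of TFAM, all dimmer, had differences of -0.05, -0.24 and -0.29, with standard errors of 0.23 to 0.51. TFB1M, which methylates the RNA of the small ribosomal subunit, had 91.2, 82.9 and 66.5 in Sham and 62.2, 95.6 and 99.0 in CPB, a difference of 0.08 (standard error 0.23). CPB 1 was the lowest animal and CPB 3 the highest.

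**Figure D4:**
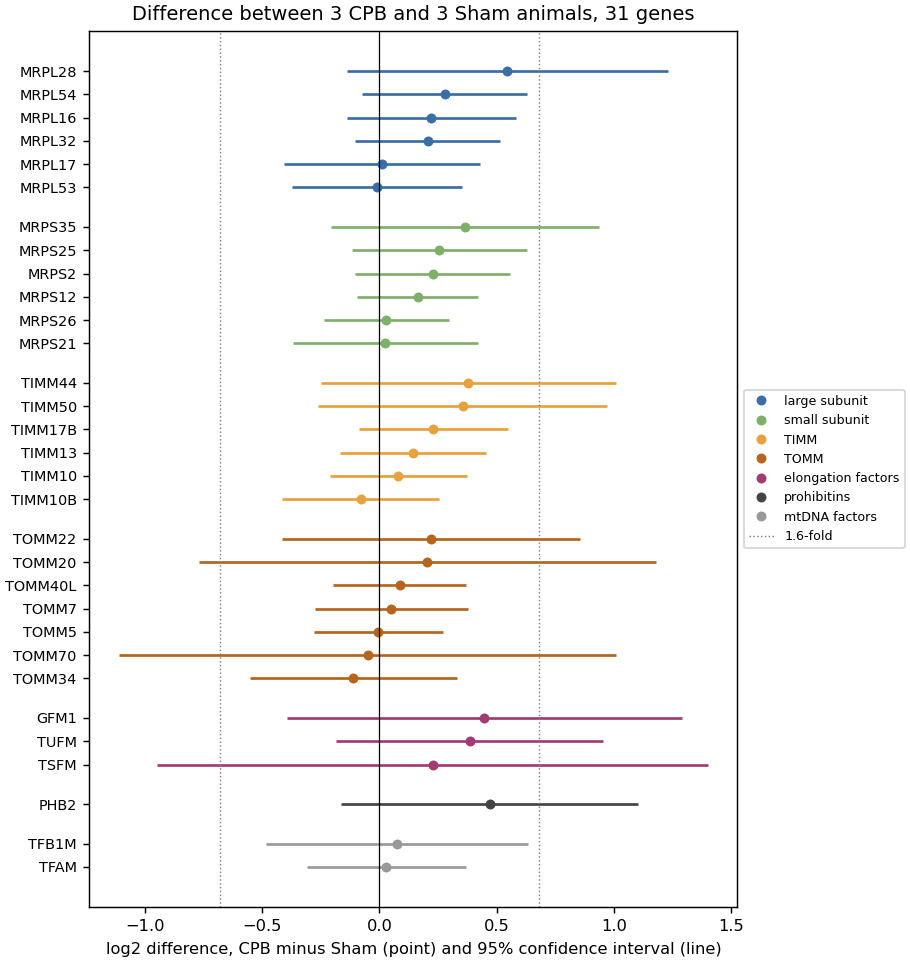
Points are log2 differences, CPB minus Sham, of 31 genes on their brightest probe set and lines are 95% confidence intervals from limma, with 3 animals per group and dotted lines at 1.6-fold. Every interval includes 0, and those of TOMM5 and MRPS12 are among the narrow ones while TSFM, TOMM70 and TOMM20 have the widest.

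The precision of these differences varied between genes. The standard error ran from 0.105 to 0.481 over the 82 genes, with a median of 0.184. The interval lay inside a 1.6-fold difference in either direction, a log2 difference of 0.678, for 49 of the 82 genes. The same held for 3867 of all 6765 named genes. For 25 of the 82 it reached at least 1.6-fold higher in CPB but not lower, for 0 the reverse, and for 8 it reached both. Over all named genes these counts were 848, 960 and 1090. The large subunit had 22 of 36 genes inside these bounds, the small subunit 15 of 22, the TIMM genes 6 of 11, the TOMM genes 4 of 7 and the elongation factors 0 of 3. The difference was smaller than the standard deviation within groups in 61 of the 82 genes, and in 5247 of all 6765 named genes. That standard deviation had a median of 0.238 on the log2 scale, and 0.242 over all named genes.

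For 18 of the 82 genes several probe sets were measured, 44 in all. Their differences had the same sign in 14 genes, 13 of them higher in CPB, and mixed signs in MRPL3, MRPS9, TFAM and TIMM10B. All 3 probe sets of TIMM44 gave 0.30 to 0.44, and both of MRPS2 gave 0.23 and 0.28. MRPL15 spread from 0.02 to 0.31. MRPL33 was the gene with a lower mean on both of its probe sets, by 0.08 and 0.26 in size. MRPL3, a core protein of the large subunit, had differences of 0.07, -0.14 and 0.18. None of the 44 reached an unadjusted p of 0.05, and the probe sets of a gene share its RNA.

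**Figure D5:**
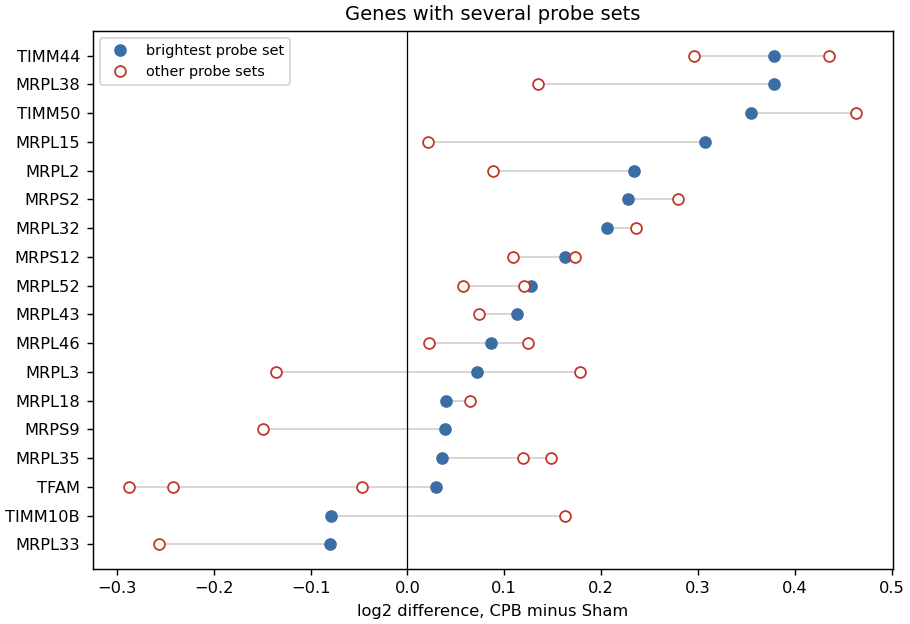
Log2 difference, CPB minus Sham, for each probe set of the 18 genes that have several, with the brightest filled and the others open. Most genes keep to one side of 0, TIMM44 with all 3 between 0.30 and 0.44, and MRPL3, MRPS9, TFAM and TIMM10B have probe sets on both sides.

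Other genes of the same pathways were read from lists, with 1 probe set per gene. The import partners, among them the matrix chaperone HSPA9 and its exchange factor GRPEL1, had 8 genes of 16 listed, all 8 higher on average in CPB, a median difference of 0.136 and none with an unadjusted p under 0.05. HSPA9 had 2517, 3063 and 2345 in Sham and 3364, 2695 and 3732 in CPB, a difference of 0.30 (standard error 0.18). GRPEL1 differed by 0.27 (standard error 0.23), and CHCHD4, the oxidase receptor of the space between the membranes, by 0.48 (standard error 0.49). The mitochondrial proteases and chaperones had 13 of 20, 10 of them higher, with a median of 0.161 and 1 with an unadjusted p under 0.05. This was MIPEP, a peptidase that trims imported proteins, with 315.4, 322.1 and 219.2 in Sham and 434.1, 436.5 and 383.3 in CPB. Its groups did not overlap, and the difference was 0.57 (standard error 0.18, limma unadjusted p = 0.0202, adjusted 0.995), with unadjusted limma values of 0.0629 without CPB 1 and 0.0521 without CPB 2. MIPEP was high in CPB 2 as well, unlike most genes above. PMPCA, a subunit of the peptidase that removes presequences, differed by 0.24 (standard error 0.18) and the protease LONP1 by 0.30 (standard error 0.26).

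Further proteins of the ribosome and its translation factors had 10 genes of 21, with 6 higher, a median of 0.102 and 1 past an unadjusted p of 0.05, with a lower mean in CPB. This was MTRF1L, a release factor that ends the chain, with 107.5, 98.1 and 148.2 in Sham and 78.9, 93.1 and 80.1 in CPB. The difference was -0.47 (standard error 0.19, limma unadjusted p = 0.0444, adjusted 0.995), with groups that did not overlap, and it was -0.29 without Sham 3. The unadjusted limma value was 0.0643 without Sham 1, 0.0975 without Sham 3, 0.122 without CPB 1 and 0.11 without CPB 3. DAP3, a small subunit protein, differed by 0.16 (standard error 0.13), and TACO1, an activator of the translation of a cytochrome oxidase subunit, by 0.27 (standard error 0.23). The mitochondrial tRNA synthetases and their amidotransferase had 9 of 20, with 7 higher and a median of 0.194. GATC, part of that amidotransferase, had 272.0, 238.3 and 251.8 in Sham and 211.0, 179.6 and 227.0 in CPB, all 3 lower, a difference of -0.31 (standard error 0.13, limma unadjusted p = 0.0598). The synthetases IARS2 and FARS2 differed by 0.31 (standard error 0.19) and 0.32 (standard error 0.21).

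The nucleoid and RNA processing list had 14 of 29, with 10 higher and a median of 0.0694. SUPV3L1, an RNA helicase of the mitochondrial degradosome, had 108.8, 117.0 and 81.6 in Sham and 119.6, 126.9 and 132.8 in CPB, all 3 higher, a difference of 0.32 (standard error 0.16, limma unadjusted p = 0.1). Its partner PNPT1, the nuclease, differed by 0.42 (standard error 0.28) and ELAC2, which cuts tRNA ends, by 0.18 (standard error 0.14). The biogenesis regulators, the transcription factors and kinases known to drive the making of mitochondria, had 7 of 15, with 3 higher and a median of -0.0569. PPARGC1A, the best known coactivator of that programme, had 1157, 1005 and 580.1 in Sham and 818.4, 873.4 and 801.3 in CPB, with overlapping groups and a difference of -0.08 (standard error 0.27). PRKAA2, a catalytic subunit of the energy sensor AMPK, had 113.7, 109.6 and 100.3 in Sham and 129.1, 141.0 and 121.6 in CPB, all 3 higher, a difference of 0.27 (standard error 0.12, limma unadjusted p = 0.0559). CREB1 differed by 0.21 (standard error 0.15) and PRKAA1, the other catalytic subunit, by -0.27 (standard error 0.35). PPARGC1A was named after its values were seen. Over these 6 lists 2 genes had an unadjusted p under 0.05, in opposite directions, and 0 passed the adjusted limma test. Of all 6765 named genes, 71 had such a p with a higher and 46 with a lower mean in CPB. Groups without overlap were seen in 231 of the 6765 with CPB higher and in 132 with CPB lower.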

How the data were processed

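Total RNA of 3 Sham and 3 CPB animals was hybridised to 1 Affymetrix porcine array each. The authors scanned the arrays, checked them in GCOS and normalised them with RMA in ArrayStar, which corrects background, equalises the arrays and summarises probes, so differences shared by all genes of an array are removed. The deposited intensity values of 24123 probe sets are on a linear scale, as read from their range, and log2 was taken. Signal over background was not analysed here.

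The 124 control probe sets were left out, and 23999 were fitted with limma 3.58.1 in R 4.3.3, group as the only term, with Benjamini-Hochberg adjustment. The study's threshold was an unadjusted p of 0.05 with 1.6-fold. The test was tried on simulated data. Names come from the array annotation, in which 10069 tested probe sets have 1 symbol, 198 several and 13732 none. Of the 108 probe sets, 107 matched RefSeq with the same symbol and MRPS25 did not match. A gene was read from the probe set with the highest mean.

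The genes, lists and tests were chosen with earlier results of these data known. Named genes were all TOMM genes, elongation factors, prohibitins and mitochondrial genome factors, the 4 smallest p and the 2 differences closest to 0 in each other group, every gene that met the study's threshold or had probe sets of mixed sign with an unadjusted p under 0.05, and the 3 smallest p in each pathway list. MRPL37, MRPL38, MRPL58, MRPL18, MRPL15, MRPL13, MRPL33, MRPL3, MRPS10, TIMM8A, TIMM8B, TIMM9, TIMM21, TIMM22, PPARGC1A and the cell markers fall outside this rule, chosen once their values had been seen. Alternatives were the methods' t-test, other priors, array weights, scalings, filters and fold minimums, a replicate block, a proximal tubule covariate and leaving out arrays. Adding the probe sets with several entries was chosen after seeing the data.

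The marker lists for thick limb (4 of 11 genes), collecting duct (6 of 14), leukocytes (12 of 18) and smooth muscle and fibroblast (10 of 13) had median log2 differences of -0.0153, -0.0183, -0.082 and -0.378, with 0 genes at an unadjusted p under 0.05.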

Additional observations from a re-analysis of the deposited data

How the results depend on the processing

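The count of genes with a higher CPB mean ran from 53 to 75 with 1 array left out, and the median from 0.0549 to 0.22, and both kept their direction in every alternative run. The median was 0.18 with array weights, 0.0739 with the proximal tubule covariate and 0.297 without both Sham 2 and CPB 2, a pair chosen with earlier results known. Of the 108 probe sets, unadjusted p under 0.05 was reached by 1 with the methods' t-test, 23 with array weights, 28 without that pair and 0 to 12 with 1 array left out (12 without Sham 2, 3 without CPB 2). The shares of all probe sets were 2.08%, 22.9% and 23.4% with the t-test, array weights and without the pair. The study's threshold was met by 6 with array weights, 14 without the pair and 0 to 2 with 1 array left out. Of all 23999 probe sets, 73 met it, against 30 with the t-test, 2116 with array weights, 3070 without the pair, 21 at 2-fold and 52 to 701 with 1 array left out (701 without Sham 2, 693 without CPB 2). Without the pair 4 of the 108 passed the adjusted test, GFM1, MRPL37, MRPL38 and MRPL28, and 719 of all 23999 probe sets did. With array weights and without the pair the calls rose over the whole array as well. The unadjusted p calls in these genes were higher in CPB for 22 of 23 with array weights and for all 28 without the pair. The shares of all probe sets count both directions, and a share for higher means alone was not analysed here. The array weights gave CPB 1 a weight of 6.16, Sham 2 0.344, CPB 2 0.374 and the others 0.867 to 1.27, and their estimation stopped before it converged.

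Of 49 named genes, 13 changed sign with 1 array left out and 11 under another alternative. With array weights the differences were -0.216 in TFB1M, 0.1 in TOMM5, 0.0283 in TOMM70 and -0.0266 in MRPS26. With the covariate they were -0.0722 in TOMM20, -0.00673 in TOMM7, -0.109 in TSFM and -0.0533 in MRPL17, and with centring on the median 0.00584 in TOMM5 and 0.00143 in MRPL53. Without the pair they were -0.0397 in TFAM, 0.0906 in TOMM5, 0.396 in TOMM70, 0.112 in MRPL53, -0.0578 in MRPS26 and 0.0457 in TIMM10B. With 1 array left out the ranges were -0.0612 to 0.143 in TFAM, -0.0534 to 0.291 in TFB1M, -0.0828 to 0.593 in TOMM20, -0.0554 to 0.05 in TOMM5, -0.0282 to 0.131 in TOMM7, -0.445 to 0.356 in TOMM70, -0.106 to 0.698 in TSFM, -0.131 to 0.0742 in MRPL53, -0.086 to 0.154 in MRPL17, -0.117 to 0.141 in MRPS21, -0.03 to 0.0689 in MRPS26, -0.169 to 0.000564 in TIMM10B and -0.522 to 0.101 in PRKAA1. The cause was not tested.

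Between same-numbered animals, deviations from the group means correlated at -0.389, -0.681 and -0.0163 over all probe sets. With 3 animals in each group this cannot show whether the replicate numbers pair the animals. With the replicate block 76 probe sets met the study's threshold, 0 of them of these genes, and the median was 0.14. The unadjusted limma value of MTRF1L was then 0.089. Signal over background limits what the dim probe sets can show and is not known here.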
